A study of Mus musculus with 18 samples.

Results

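Anti-CD3 and anti-CD28 stimulation of control naive CD4+ T cells was examined by setting 3 libraries of stimulated culture against 3 libraries of unstimulated culture, 6 of the 18 RNA-seq libraries of a series on Creld1. The libraries were chosen by their labels alone, and every gene with a value of at least 10 on the linear scale in 3 or more of the 18 libraries was tested, 10877 of 15137 genes. Spleens of C57BL/6J mice, an inbred laboratory strain, were the source, and naive cells were sorted by a gate that included CD3+, CD4+, CD25- and CD44-. In the stimulated group they were cultured for 8 h with anti-CD3 and anti-CD28 antibodies at 1 µg/ml, and in the unstimulated group for 8 h in IMDM without antibody. Both groups came from mice labelled Control, and the labels say nothing of the alleles, age or sex of these mice. The other libraries were 3 from freshly isolated control cells and 9 from Creld1cKO mice, a conditional knockout made with CD4-Cre, in the same 3 conditions. The 3 libraries of each group share 1 mouse label, so the p-values measure the spread between libraries, which may be technical.

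Antibodies to CD3 engage the T cell receptor complex, and antibodies to CD28 engage the main co-stimulatory receptor of naive T cells. Together they start kinase cascades, calcium entry and NF-kB activation, which within hours switch on transcription factors of the EGR, NR4A and IRF families. Cytokine and cytokine receptor genes follow, and growth, ribosome synthesis and cell division come later, while genes of the resting naive state are turned down. In a whole-population RNA measurement, fewer cells of a type and less RNA per cell cannot be told apart.

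The values are the deposited log2 values, and a difference is given on the log2 scale as stimulated minus unstimulated. The linear values of the 18 libraries summed to between 6782465 and 7419367, which reflects the authors' normalization, and the sequencing depth is unknown. Transcripts of the naive CD4 T cell were abundant, with Cd4 at 12.54, 12.54 and 12.46 in stimulated libraries and 12.45, 12.62 and 12.60 in unstimulated ones. B cell, CD8 T and NK cell, and myeloid marker lists had 3 of 16, 5 of 16 and 3 of 15 genes above the minimum level, and each summed to less in every library than the memory markers. The memory list took 0.104 to 0.131% of the linear sum in stimulated and 0.105 to 0.129% in unstimulated libraries, and the naive CD4 list 0.938 to 0.984% against 1.00 to 1.01%. The part of other cells in the results was not tested. The slope of a library's centred log2 values on transcript GC content, per SD of GC content, averaged 0.00404 ± 0.125 in stimulated and 0.151 ± 0.088 in unstimulated libraries (SD, n = 3 each; two-sided exact permutation p = 0.2, where 0.10 is the smallest possible). Mitochondrially encoded transcripts took 3.72% ± 0.42 and 3.27% ± 0.33 of the linear sum (exact permutation p = 0.2).

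In the main fit, without covariate or library weights, few genes differed between stimulated and unstimulated cells, mostly upward and mostly by less than 2-fold. The number and direction depended on the fit. With library weights 1098 genes were higher and 1599 lower. By limma's moderated test over all genes, 34 genes (0.313% of those tested) were higher and 4 (0.0368%) lower at an adjusted p under 0.05, with adjusted p from 8.6e-04 to 0.0491. A fit of only the 6 libraries compared found 7 higher and 0 lower; Tnfrsf19, Hspa4l, Icos, Sla, Sept7 and Btla were the 6 of the 38 that passed there, and Egr1, Egr2, Egr3, Irf4, Il2ra and Ccr4 did not (adjusted p from 0.116 to 0.202). Genes that passed in the fit of all 18 libraries are termed called; without adjustment, 1233 genes (11.3%) had a limma p under 0.05. At least 2-fold changes were found for 9 of the higher genes and for 1 lower gene, Trib3, and 0 genes reached 4-fold. The higher genes included the transcription factor genes Egr1, Egr2, Egr3 and Irf4, the receptor genes Il2ra, Ccr4 and Icos, and feedback inhibitors of signalling. All 38 had groups that did not overlap, as did 20.5% of all tested genes. The median difference over all genes was -0.02, and 5009 of the 10877 tested genes were above 0. Each SE and 95% interval of a difference rests on limma's moderated spread within all 6 groups, not on the 6 libraries alone. For Ccr4 and Irf4 the SD of the 3 stimulated libraries was 0.70 and 0.59, against 0.22 and 0.27 in unstimulated ones. The 95% interval lay within 2-fold for 10061 genes, 92.5% of those tested. No gene went from below a linear value of 10 to 100 or more, or the reverse (0 in each direction). Of the 10 most abundant genes in each group 8 were shared, led in both by mt-Co1, Eef1a1 and Ddx5, and none of the 10 in either group was called.

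**Figure D1:**
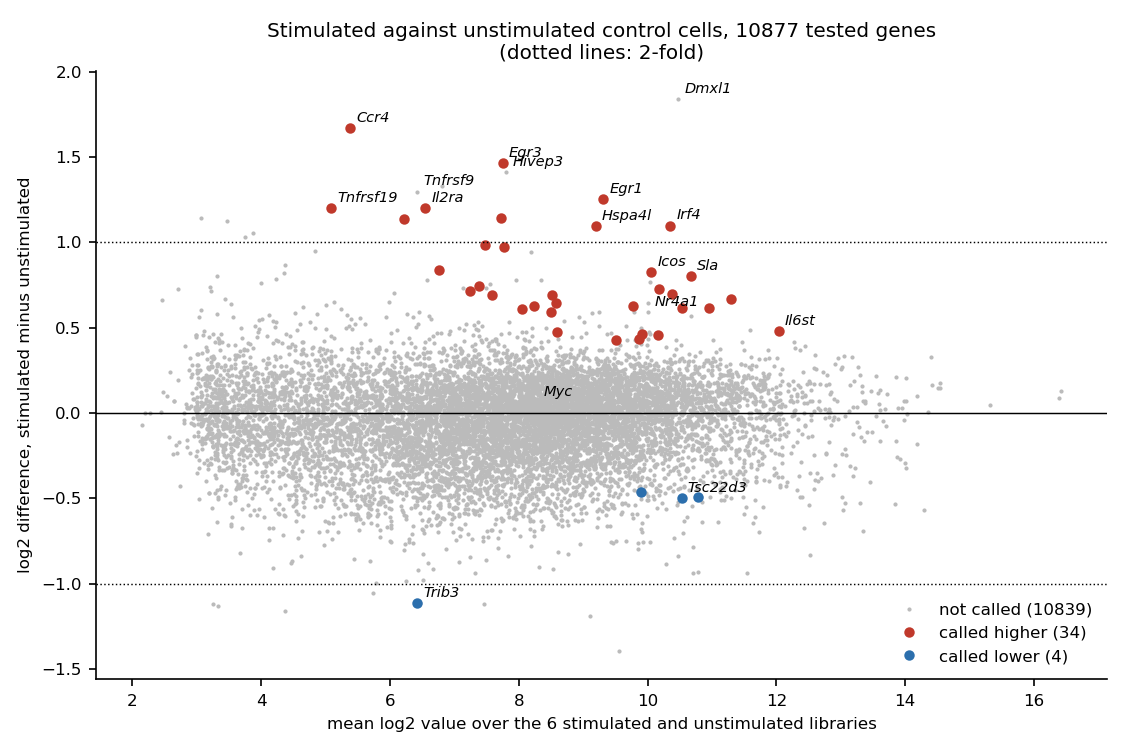
Log2 difference between stimulated and unstimulated control cells (y axis) against the mean log2 value of the 6 libraries (x axis) for the 10877 tested genes. The 34 genes called higher (red) lie between 0.43 and 1.67, and the 4 called lower (blue) include Trib3 at -1.12. Dmxl1, the highest grey point at 1.84, was not called.

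How many genes were called depended on single libraries. Stimulated replicate 1 was the lowest of its group for 29 of the 34 higher genes, 85.3%, against 41.0% of all tested genes. Without it 78 genes were called, 37 of the 38 among them, and the median difference of the 34 genes was 0.84, against 0.71 with all libraries. Without stimulated replicate 2 or 3, 6 and 4 genes were called, and without unstimulated replicate 1, 2 or 3, 9, 12 and 15. Tnfrsf19, Hspa4l, Sla and Crybg1 were called in all 6 of these fits, Egr3 and Sytl2 in 5, and Sept7 in 0. For the median of the 34 genes the range over the 6 fits was 0.63 to 0.84.

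Among 35 tested transcription factors of the T cell receptor response, 4 were called, all higher, and 31 were not. EGR factors are zinc-finger proteins induced through the MAP kinase pathway. Egr3 (chromosome 14, 70077203 to 70082614, plus strand, GRCm38) was at 8.10, 8.66 and 8.69 in stimulated and 6.6, 6.97 and 7.49 in unstimulated libraries, a rise of 1.46 ± 0.20 (SE, n = 3 each; 2.76-fold; limma adjusted p = 0.00527). Egr1 was at 9.51, 10.17 and 10.12 against 8.30, 8.78 and 8.96 (1.25 ± 0.19; adjusted p = 0.00803). Egr2 (chromosome 10, 67535475 to 67542188, plus strand) was at 7.98, 8.55 and 8.38 against 6.75, 7.19 and 7.54 (1.14 ± 0.19; adjusted p = 0.0188). In each EGR gene the lowest stimulated library lay above the highest unstimulated one, and the first library was the lowest of both groups. Irf4 encodes a factor whose amount is known to follow the strength of T cell receptor signals (chromosome 13, 30749226 to 30766976, plus strand). Its values were 10.22, 11.21 and 11.27 in stimulated and 9.49, 9.97 and 9.95 in unstimulated libraries, a rise of 1.10 ± 0.22 (2.14-fold; adjusted p = 0.0395), with the first stimulated library only slightly above the highest unstimulated one. Myb, a factor of lymphocyte progenitors and of self-renewing T cells that is in none of the lists, rose by 0.73 ± 0.14 (10.12, 10.75 and 10.76 against 9.60, 9.89 and 9.96; adjusted p = 0.0316).

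Other members of this group had differences near 0 or wide intervals. Myc, the growth regulator of activated T cells, was at 8.05, 8.51 and 8.42 in stimulated and 7.92, 8.38 and 8.48 in unstimulated libraries, a difference of 0.065 with a 95% interval of -0.34 to 0.47 (adjusted p = 0.877). The groups overlapped, and the interval leaves out a 2-fold change. For Nr4a1, the orphan nuclear receptor gene used as a reporter of T cell receptor signals, the values were 9.57, 10.80 and 10.55 against 9.19, 9.85 and 10.10 (difference 0.59, 95% interval -0.30 to 1.48, adjusted p = 0.539). With an interval that reaches past 2-fold, the data leave a change of that size in Nr4a1 unresolved. The median over the 35 genes was 0.063, and 20 of them were above 0.

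**Figure D2:**
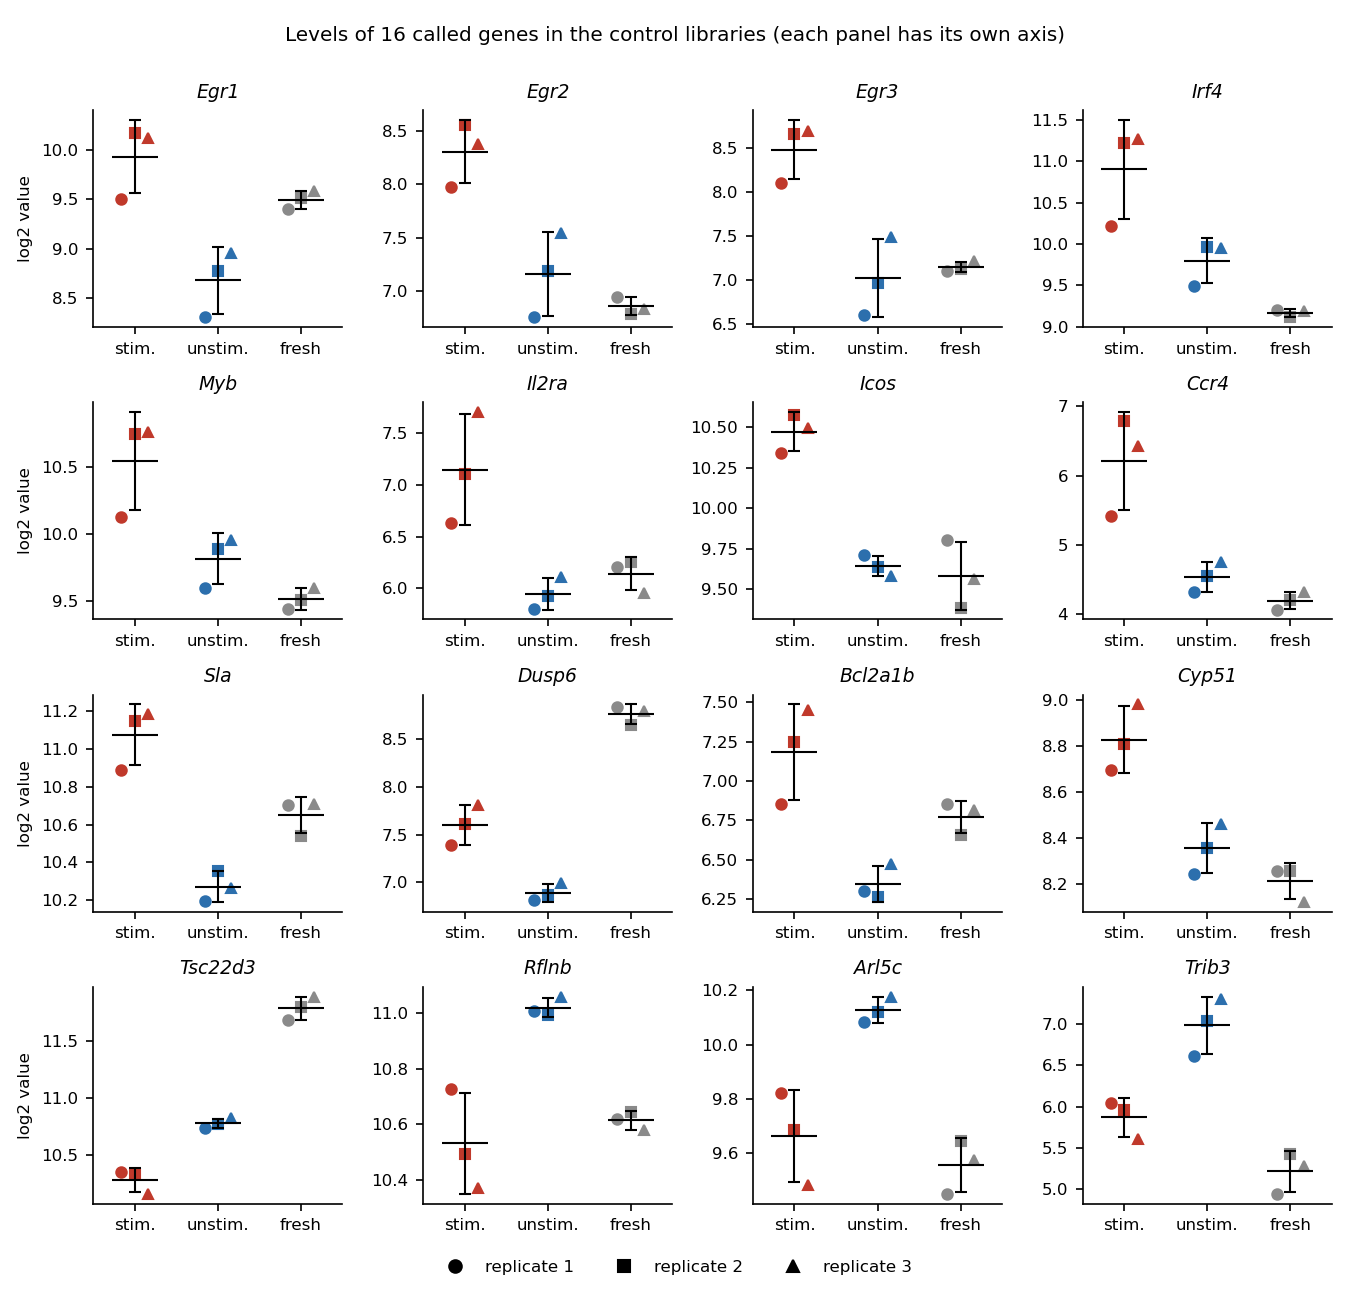
Log2 values of 16 called genes in the stimulated (red), unstimulated (blue) and fresh (grey) control libraries, with the mean and SD of 3 libraries as a bar; symbols mark replicates 1 to 3, and each panel has its own axis. Stimulated and unstimulated libraries do not overlap in any panel, and the circle of replicate 1 is the lowest red point in all 12 panels of higher genes.

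Of the receptor genes, the interleukin 2 receptor alpha chain, the chemokine receptor Ccr4 and several co-stimulatory receptors were higher. Il2ra encodes CD25, the chain that gives the interleukin 2 receptor its high affinity (chromosome 2, 11642807 to 11693193, plus strand), and the sort had removed cells with CD25 on their surface. Il2ra was at 6.64, 7.10 and 7.70 in stimulated and 5.81, 5.93 and 6.11 in unstimulated libraries, a rise of 1.2 ± 0.23 (2.3-fold; adjusted p = 0.0309). The 3 stimulated libraries differed among themselves by more than the 3 unstimulated ones. Il2ra is also a marker of regulatory T cells, whose defining factor gene Foxp3 was at 5.58, 5.65 and 5.60 in stimulated and 5.70, 5.80 and 5.99 in unstimulated libraries. Of 10 tested genes of the regulatory T cell list, which includes Il2ra, 7 had a difference above 0 (median 0.098). The list took 0.0196 to 0.0246% of the linear sum in stimulated and 0.0193 to 0.0203% in unstimulated libraries. The part of regulatory T cells in the rise was not tested. Il6st, the signalling chain shared by receptors of the interleukin 6 family, rose by 0.48 ± 0.10 (12.13, 12.38 and 12.32 against 11.85, 11.86 and 11.68; adjusted p = 0.0491). Il2ra and Il6st were the 2 calls among 34 tested cytokine receptor and Jak/Stat genes, whose median was -0.15. Il7r, the interleukin 7 receptor chain of naive cells, differed by -0.16 (13.92, 13.22 and 13.44 against 13.86, 13.63 and 13.58; adjusted p = 0.628).

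Ccr4, the receptor for the chemokines CCL17 and CCL22, showed the largest rise of the 34 genes (chromosome 9, 114490316 to 114504916, minus strand). It was at 5.43, 6.78 and 6.43 in stimulated and 4.32, 4.55 and 4.76 in unstimulated libraries, a difference of 1.67 ± 0.27 (3.18-fold, 95% interval 1.10 to 2.24; adjusted p = 0.012). Ccr4 was the single call among 26 genes of homing, egress and adhesion. Ccr7, a chemokine receptor that brings naive T cells into lymph nodes, differed by -0.24 (adjusted p = 0.495), with overlapping groups.

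Of 34 co-stimulatory and inhibitory receptor genes 3 rose and 0 fell, and 28 had a difference above 0 (median 0.17). Icos, an inducible co-stimulator of the CD28 family (chromosome 1, 60977927 to 61000320, plus strand), was at 10.34, 10.58 and 10.49 against 9.71, 9.64 and 9.58 (0.83 ± 0.13; 1.77-fold; adjusted p = 0.0115). Slamf1, a self-binding receptor, rose by 0.69 ± 0.14 (7.55, 7.98 and 8.26 against 7.05, 7.34 and 7.31; adjusted p = 0.0395). Btla, an inhibitory receptor, rose by 0.61 ± 0.12 (10.77, 10.85 and 10.88 against 10.22, 10.30 and 10.15; adjusted p = 0.0378). Several known activation markers in this list did not pass. The values of Tnfrsf9, encoding 4-1BB, were 6.15, 7.24 and 7.80 in stimulated and 5.66, 5.74 and 5.90 in unstimulated libraries (difference 1.30 ± 0.30, adjusted p = 0.0965). Cd69 was at 9.73, 9.90 and 10.12 against 9.28, 9.43 and 9.52 (0.51 ± 0.12, adjusted p = 0.0966), without overlap. Tnfrsf4, encoding OX40, differed by -0.26 (adjusted p = 0.509).

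Promoter windows of 5 risen genes are shown because they hold the motifs searched in this response; each runs from 250 bases before to 50 after the start in RefSeq on GRCm38.p6, 5′ to 3′ on the gene's strand. Capitals mark an AP-1 site (TGANTCA) in Ccr4, a kappaB site in Il2ra, and in Egr2 a kappaB site, GC boxes (GGGCGG) and an E-box (CACGTG). For the cholesterol synthesis genes Idi1 and Cyp51, described further on, they mark CCAAT and GC boxes, and in Cyp51 also an NFAT core (GGAAAA, here on the other strand).
Ccr4 promoter, chr9:114496495-114496794, minus strand: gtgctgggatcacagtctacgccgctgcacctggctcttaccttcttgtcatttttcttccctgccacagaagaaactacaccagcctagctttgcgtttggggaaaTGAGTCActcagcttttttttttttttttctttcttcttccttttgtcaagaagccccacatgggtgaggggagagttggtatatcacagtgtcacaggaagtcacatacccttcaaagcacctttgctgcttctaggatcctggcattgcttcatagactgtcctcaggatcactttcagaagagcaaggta
Il2ra promoter, chr2:11642542-11642841, plus strand: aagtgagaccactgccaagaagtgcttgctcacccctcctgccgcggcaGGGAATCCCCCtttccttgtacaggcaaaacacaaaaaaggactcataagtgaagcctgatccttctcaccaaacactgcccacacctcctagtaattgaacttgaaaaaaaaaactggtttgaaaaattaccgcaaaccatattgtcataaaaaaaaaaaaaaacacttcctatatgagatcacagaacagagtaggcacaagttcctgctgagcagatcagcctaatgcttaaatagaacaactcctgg
Egr2 promoter, chr10:67535249-67535548, plus strand, the first of 5 windows in the table: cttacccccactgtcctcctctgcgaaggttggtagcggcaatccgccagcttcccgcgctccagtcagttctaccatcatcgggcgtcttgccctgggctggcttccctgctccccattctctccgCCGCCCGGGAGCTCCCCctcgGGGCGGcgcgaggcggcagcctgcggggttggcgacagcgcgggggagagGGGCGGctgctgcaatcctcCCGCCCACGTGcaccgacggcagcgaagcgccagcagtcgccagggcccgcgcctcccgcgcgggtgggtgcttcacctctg
Idi1 promoter, chr13:8885356-8885655, plus strand: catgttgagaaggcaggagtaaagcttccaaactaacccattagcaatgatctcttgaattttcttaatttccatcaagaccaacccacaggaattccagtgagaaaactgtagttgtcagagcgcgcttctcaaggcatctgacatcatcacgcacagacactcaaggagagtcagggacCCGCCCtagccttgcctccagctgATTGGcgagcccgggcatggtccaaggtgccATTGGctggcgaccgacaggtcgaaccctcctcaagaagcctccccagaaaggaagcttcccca
Cyp51 promoter, chr5:4104648-4104947, minus strand: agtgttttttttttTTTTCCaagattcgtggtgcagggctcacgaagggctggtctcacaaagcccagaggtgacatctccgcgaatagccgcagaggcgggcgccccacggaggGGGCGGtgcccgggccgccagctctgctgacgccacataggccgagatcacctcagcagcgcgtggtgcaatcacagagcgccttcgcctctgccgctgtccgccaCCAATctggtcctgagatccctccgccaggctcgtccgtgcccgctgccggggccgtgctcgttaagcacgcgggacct

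Counting from the first transcribed base in RefSeq, the AP-1 site of Ccr4 began at position -143, the kappaB site of Il2ra at -201 and that of Egr2 at -117. The Ccr4 window lies inside the gene coordinates given above (114490316 to 114504916), which come from another annotation with an earlier start. Windows were matched by symbol for 27 of the 38 called genes and for 8600 tested genes. On either strand, an AP-1 site was present in 2 of 24 higher genes with a window (8.33%, against 4.58% of all tested genes), a kappaB site in 2 (8.33% against 9.71%) and an NFAT core in 8 (33.3% against 21.0%). A CCAAT box stood in 8 (33.3% against 39.9%) and a GC box in 16 (66.7% against 64.4%). The E-box was in 2 (8.33% against 10.4%), an EGR site in 1 (4.17% against 10.4%) and an ETS site in 1 (4.17% against 20.3%). In all 17 motifs were searched, and not all are given here. A cAMP response element (TGACGTCA), a CArG box, a sterol regulatory element (TCACNCCAC) and an E2F site (TTTNNCGC) were in 0 of the 24, against 3.5%, 1.22%, 1.01% and 8.97% of all tested genes. These are matches of letters in one window per gene, given without a test.

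Signalling genes with a call were mostly inhibitors or adaptors. Sla, the adaptor SLAP that limits the amount of T cell receptor at the surface, had the smallest adjusted p of all genes (chromosome 15, 66780819 to 66831829, minus strand). It was at 10.89, 11.15 and 11.18 in stimulated and 10.20, 10.36 and 10.26 in unstimulated libraries, a rise of 0.80 ± 0.09 (1.74-fold; adjusted p = 8.6e-04). Malt1, the paracaspase that links the receptor to NF-kB, rose by 0.62 ± 0.12 (11.20, 11.13 and 11.44 against 10.69, 10.59 and 10.63; adjusted p = 0.0309). Those were the 2 calls among 42 genes of the receptor complex and its proximal signalling, whose median was 0.0067. Tespa1, a T cell receptor signalling gene outside that list, was also called higher (0.65 ± 0.12, limma adjusted p = 0.0257). Of 34 genes of calcium entry, calcineurin and NFAT, limma called 0, with an unadjusted p under 0.05 for 3 (Nfatc1 at 0.21, adjusted p = 0.584). Of 26 genes of NF-kB and its brakes it called 0, with an unadjusted p under 0.05 for 7 (Nfkbid at 0.26, adjusted p = 0.61; Tnfaip3 at -0.057, adjusted p = 0.772).

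Feedback inhibitors gave 3 calls among 29 genes, all higher, with a median of 0.11. Dusp6, the phosphatase that removes phosphate from ERK, was at 7.39, 7.61 and 7.81 in stimulated and 6.81, 6.86 and 6.99 in unstimulated libraries (chromosome 10, 99263231 to 99267489, plus strand; 0.71 ± 0.11; adjusted p = 0.00803). Spred2, an inhibitor of the step between Ras and Raf, was at 8.57, 8.95 and 8.87 against 8.14, 8.26 and 8.23 (0.59 ± 0.09; adjusted p = 0.00803). The related Spred1, chosen after its values were seen, was at 7.37, 7.48 and 7.67 against 6.65, 7.04 and 6.62 and did not pass (0.73 ± 0.16, adjusted p = 0.0769). Rgs10, a GTPase-activating protein for G protein alpha subunits, rose by 0.43 ± 0.08 (adjusted p = 0.0309).

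No cytokine gene was called. Of 43 cytokine and chemokine genes listed 32 were in the table and 15 passed the minimum level; limma called 0 of the 15, and 4 had an unadjusted p under 0.05. Il2, the T cell growth factor, lay below the minimum, at 2.14, 2.45 and 2.47 in stimulated and 2.22, 2.06 and 2.00 in unstimulated libraries, with overlapping groups. Of the 17 listed genes below the minimum, 14 had overlapping groups, Ifng among them. The other 3, chosen after their values were seen, were higher in stimulated libraries without overlap and were not tested. Among all tested genes, 20.5% had groups without overlap, counting both directions. Xcl1 was at 1.76, 1.79 and 1.97 in stimulated and 1.42, 1.4 and 1.41 in unstimulated libraries, and Tnfsf4, encoding the OX40 ligand, at 3.21, 2.98 and 3.02 against 2.64, 2.79 and 2.75. Ccl3 was the lowest, with -0.29, -0.040 and -0.081 against -0.29, -0.32 and -0.30. Its lowest stimulated library, at -0.28966, was barely above the highest unstimulated one, at -0.290249. Tnf passed the minimum and was at 6.47, 7.11 and 7.31 against 6.17, 6.18 and 6.20, a difference of 0.78 ± 0.16 without overlap that missed the threshold (adjusted p = 0.0628). Cd40lg, the ligand by which helper T cells act on B cells, was at 9.38, 9.27 and 9.33 in stimulated and 9.23, 9.15 and 9.14 in unstimulated libraries, a difference of 0.16 without overlap (95% interval -0.012 to 0.32; adjusted p = 0.463).

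In metabolism, 2 of 41 genes of cholesterol and fatty acid synthesis rose and 0 fell, with a list median of -0.032. Idi1 makes the activated isoprene unit used for sterols, and Cyp51 removes a methyl group from lanosterol. Idi1 was at 8.34, 8.40 and 8.31 in stimulated and 7.69, 7.71 and 7.81 in unstimulated libraries (0.61 ± 0.11; 1.53-fold; adjusted p = 0.028), and Cyp51 at 8.69, 8.81 and 8.98 against 8.24, 8.36 and 8.46 (0.47 ± 0.09; 1.39-fold; adjusted p = 0.028). Sqle, which makes the epoxide of squalene, differed by 0.37 and did not pass (adjusted p = 0.0945). For the sterol exporter gene Abcg1 the difference was -0.66 ± 0.14 (8.45, 8.56 and 8.30 against 8.96, 9.14 and 9.18; adjusted p = 0.0769).

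The 4 genes that fell have different known roles. Trib3, a pseudokinase gene induced by the integrated stress response (chromosome 2, 152337422 to 152344032, minus strand), was at 6.04, 5.96 and 5.61 in stimulated and 6.61, 7.04 and 7.30 in unstimulated libraries (-1.12 ± 0.21; 2.17-fold lower; adjusted p = 0.0316). It was the single call among 36 genes of endoplasmic reticulum folding and the stress response. Tsc22d3, encoding the glucocorticoid-induced leucine zipper GILZ (chromosome X, 140539528 to 140600659, minus strand), was at 10.35, 10.33 and 10.16 against 10.74, 10.77 and 10.82 (-0.50 ± 0.10; adjusted p = 0.0475). It was the single call among 48 genes of naive identity and quiescence, of which 14 had a difference above 0 (median -0.094). Klf2, Tcf7 and Txnip of that list differed by -0.43, -0.16 and -0.31 (adjusted p = 0.386, 0.512 and 0.145). Rflnb, encoding the filamin-binding protein refilin B, fell by 0.49 on the log2 scale (10.73, 10.49 and 10.37 against 11.01, 10.99 and 11.06; adjusted p = 0.00803). Arl5c, of the ARF-like GTPases, fell by 0.46 (9.82, 9.69 and 9.48 against 10.08, 10.12 and 10.18; adjusted p = 0.0411).

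Growth and division genes gave no call. Limma called 0 of 64 genes of exit from G1 and DNA replication, and 4 of these had an unadjusted p under 0.05. For mitosis it called 0 of 27 (3 unadjusted), for ribosome biogenesis 0 of 70 (15 unadjusted) and for cytosolic ribosomal proteins 0 of 79 (1 unadjusted). For glucose transport and glycolysis it called 0 of 37 (7 unadjusted), and for amino acid transport and synthesis 0 of 29 (6 unadjusted). Ribosome biogenesis genes had a median of 0.15 with 57 of 70 above 0, and cytosolic ribosomal protein genes a median of -0.17 with 22 of 79 above 0. The 13 mitochondrially encoded genes lay between 0.071 and 0.39 (median 0.21). Ccnd2, encoding cyclin D2, differed by 0.35 (adjusted p = 0.194), Ncl by 0.19 (adjusted p = 0.501), Slc7a5 by 0.20 (adjusted p = 0.684) and Ldha by 0.015 (adjusted p = 0.959). In all, 10 of the 35 function lists held a call and 25 held none, and 20 of the 38 called genes were in a list.

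**Figure D3:**
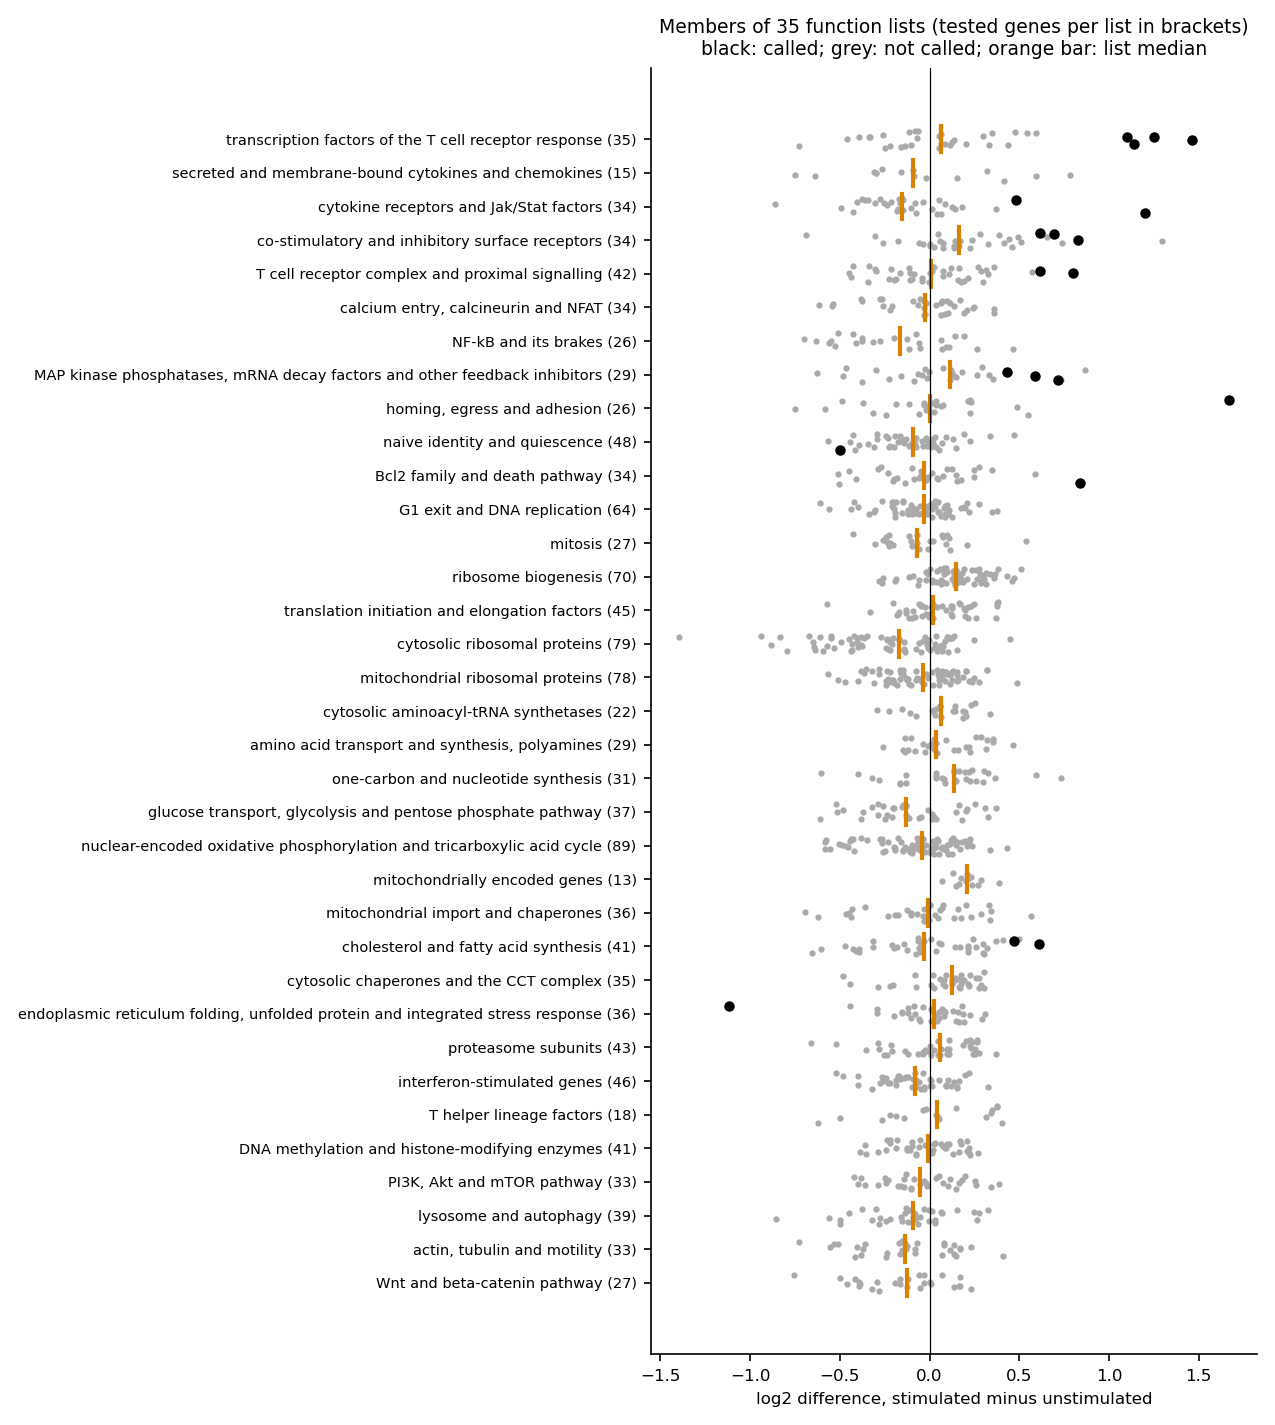
Log2 differences between stimulated and unstimulated control cells (x axis) for the tested members of 35 function lists (y axis, number tested in brackets). Black points are called genes, grey points are not called, and orange bars are list medians, which lie between -0.17 for cytosolic ribosomal proteins and 0.21 for mitochondrially encoded genes.

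Of the called genes 18 were in no function list, and they included 3 with a rise of at least 2-fold. Tnfrsf19, encoding the TNF receptor family member TROY, was at 5.70, 5.70 and 5.67 in stimulated and 4.65, 4.40 and 4.43 in unstimulated libraries (chromosome 14, 60963875 to 61046490, minus strand; chosen after its values were seen; 1.2 ± 0.14; 2.3-fold; adjusted p = 0.00148). Hspa4l, encoding a chaperone of the Hsp110 family, was at 9.55, 9.83 and 9.84 against 8.39, 8.82 and 8.72 (1.10 ± 0.14; 2.14-fold; adjusted p = 0.00148), while limma called 0 of 35 listed cytosolic chaperone genes (7 with an unadjusted p under 0.05). Cldn10, of the claudins of tight junctions, was at 6.31, 6.90 and 7.14 against 5.75, 5.41 and 5.79 (1.13 ± 0.20; adjusted p = 0.0207). The stimulated libraries of Tnfrsf19 were nearly level, and those of Cldn10 were more widely spread. Itih5 rose by 0.99 and Sytl2, encoding a Rab27 effector, by 0.97, and the other higher genes outside the lists rose by between 0.43 for the G protein-coupled receptor gene Gpr171 and 0.74 for Ublcp1, encoding a phosphatase that acts on proteasomes. Crybg1, like Gpr171 chosen after its values were seen, rose by 0.46 ± 0.06 (10.13, 10.16 and 10.13 in stimulated and 9.66, 9.75 and 9.62 in unstimulated libraries; adjusted p = 0.00148).

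Some genes with large differences did not pass, and they were chosen after their values were seen. Dmxl1, encoding a WD-repeat protein, had the largest difference of all tested genes, 1.84 ± 0.61, at 9.89, 12.00 and 12.30 in stimulated and 9.71, 9.65 and 9.32 in unstimulated libraries (adjusted p = 0.258). Its first stimulated library stood near the unstimulated ones, and without that library it passed (adjusted p = 0.044). In Creld1cKO cells the difference of Dmxl1 was negative, -0.95 (limma adjusted p = 0.312). Its mean there was 9.62 ± 0.12 in stimulated and 10.56 ± 1.14 in unstimulated libraries (SD, n = 3 each), so the unstimulated libraries were widely spread. Hivep3, a zinc-finger gene, was at 7.57, 8.99 and 8.97 against 6.83, 7.01 and 7.45 (1.41 ± 0.31, adjusted p = 0.0817). In Creld1cKO cells the difference of Hivep3 was 1.78 and passed (limma adjusted p = 0.0219).

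Bcl2a1b, an anti-apoptotic gene of the A1 family, was the single call among 34 genes of the Bcl2 family and death pathway (6.85, 7.25 and 7.45 against 6.30, 6.26 and 6.47; 0.84 ± 0.15; adjusted p = 0.028). Its near-identical copies share reads, so its value is uncertain, and the copy Bcl2a1d, chosen after its values were seen, differed by 0.59 (adjusted p = 0.228).

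Against freshly isolated cells, the called genes took different positions. Both cultured groups are set against the same 3 fresh libraries, so the comparisons share libraries. Stimulated and fresh cells differed in 2049 genes (18.8%), and unstimulated and fresh cells in 3151 (29%). Of the 34 higher genes, 14 had a fresh mean below both cultured means, 17 between them and 3 above both. Irf4 was at 9.20, 9.11 and 9.19 in fresh cells, so that stimulated cells stood 1.73 above (adjusted p = 4.3e-05) and unstimulated cells 0.63 above (adjusted p = 0.0398). Egr1 was at 9.40, 9.51 and 9.58 in fresh cells, with stimulated cells 0.44 above (adjusted p = 0.13) and unstimulated cells at -0.82 (adjusted p = 0.0049). Dusp6 was at 8.84, 8.65 and 8.80 in fresh cells, above both cultured groups (stimulated -1.16, unstimulated -1.88). Sytl2 and the T cell receptor signalling gene Tespa1 had the same position (Sytl2 -0.58 and -1.55, Tespa1 -1.14 and -1.79). Cd69 was likewise highest in fresh cells, at 11.48, 11.16 and 11.41. Trib3 was lowest in fresh cells, at 4.94, 5.43 and 5.28, and Tsc22d3 highest, at 11.69, 11.80 and 11.89.

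**Figure D4:**
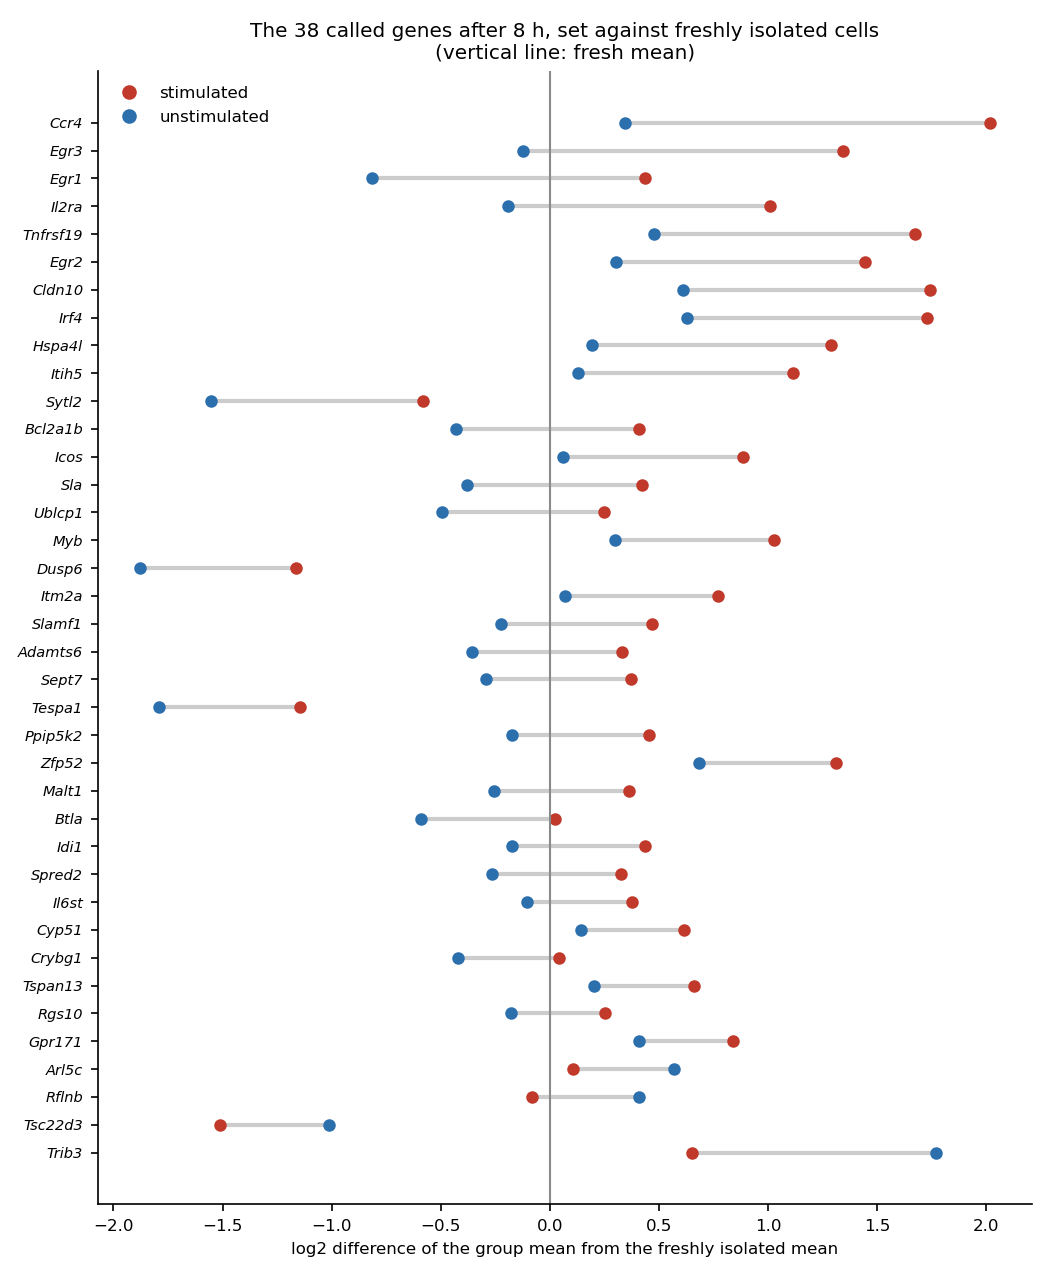
Mean log2 values of the 38 called genes in stimulated (red) and unstimulated (blue) control cells as differences from the mean of freshly isolated cells (vertical line at 0), genes ordered by the difference between both cultured groups. For Dusp6, Sytl2 and Tespa1 both cultured groups lie left of the fresh mean, and for Ccr4 and Irf4 both lie right of it.

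The same contrast was available in Creld1cKO cells, whose 6 cultured libraries are not among those compared above but entered the shared estimate of spread. All 34 higher genes had a positive difference there, as did 51.4% of all tested genes, and 12 of the 34 were called, where 30 of 10877 genes (0.276%) were called higher in all. Their median difference was 0.53 in Creld1cKO and 0.71 in control cells. The 34 genes were chosen by the control difference, so these medians cannot show which genotype responded more. Egr3 differed by 1.97 in Creld1cKO and 1.46 in control cells, Ccr4 by 1.72 and 1.67, Tnfrsf19 by 1.18 and 1.2, and Hspa4l by 0.40 and 1.10. Of the 4 lower genes 3 were negative in Creld1cKO cells and limma called 0, with an unadjusted p under 0.05 for 2, where 1 gene (0.00919%) was called lower in all. Trib3 was at 0.22 in Creld1cKO and -1.12 in control cells. The difference between the genotypes in response passed for none of the 38 genes (limma adjusted p from 0.166 to 0.984, with an unadjusted p under 0.05 for 13). Of all tested genes it passed for 1 (0.00919%), which was not among the 38. The 38 were chosen by their control difference, which is part of this test, so the 13 do not measure a genotype effect.

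**Figure D5:**
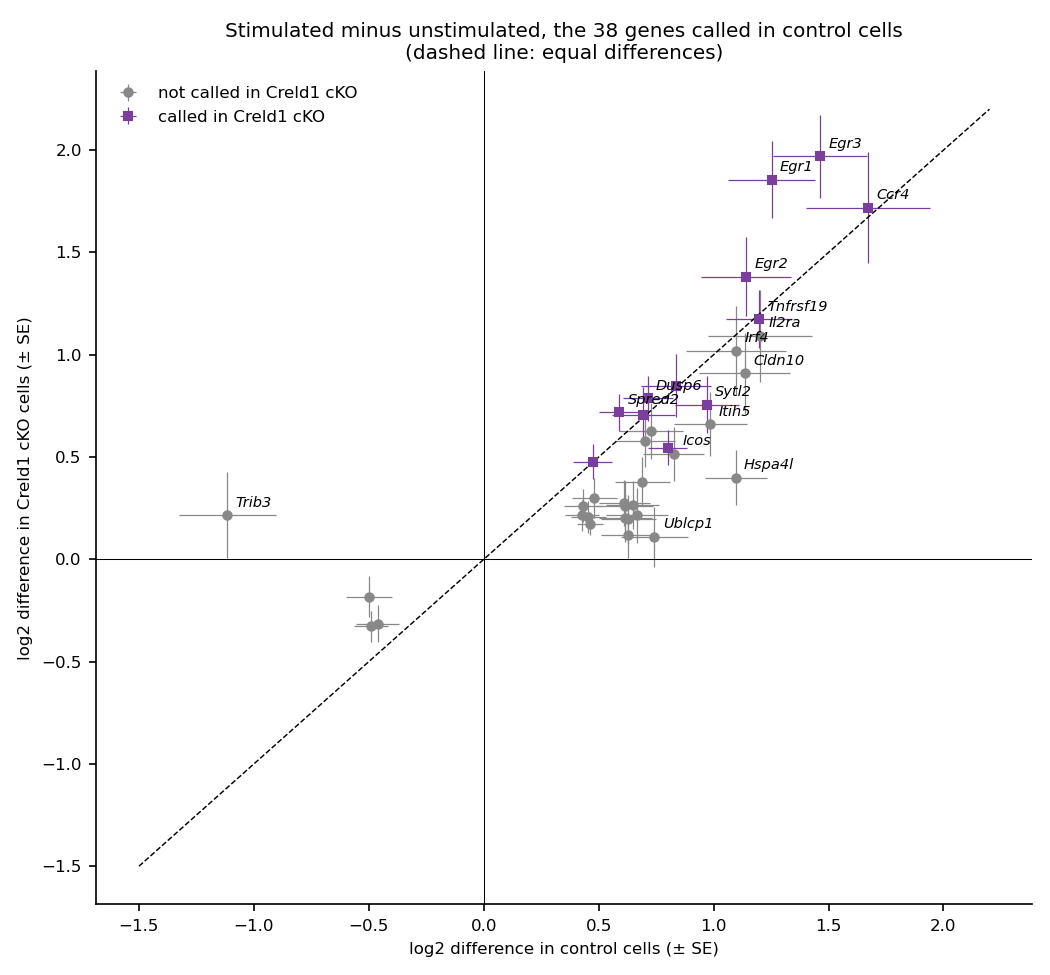
Stimulated minus unstimulated log2 differences with SE in Creld1cKO cells (y axis) against control cells (x axis) for the 38 genes called in control cells. The 12 genes also called in Creld1cKO cells are purple squares; Egr3, Egr1 and Ccr4 stand highest, and Trib3 at -1.12 in control cells is at 0.22 in Creld1cKO cells.

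A fit that took account of the GC slope of the libraries called more genes. The transcripts of the 34 higher genes had a median GC content of 44.5%, those of the 4 lower genes 51.2%, and those of all tested genes 49.2%. With each library's GC slope as a covariate all 38 genes were still called, and 321 genes were called in all, 234 higher (2.15%) and 87 lower (0.8%). Egr3 was then at 1.59, Ccr4 at 1.89, Irf4 at 1.26 and Trib3 at -0.90. Nr4a1 was at 1.19 (adjusted p = 2.2e-05), Tnfrsf9 at 1.48 (adjusted p = 0.0049), Tnf at 0.91 (adjusted p = 0.0011) and Nfatc1 at 0.43 (adjusted p = 0.0053), all called in that fit, while Myc at 0.29 was not (adjusted p = 0.18). Nfkbid at 0.57 (adjusted p = 0.011), Slc7a5 at 0.50 (adjusted p = 0.030), Ccnd2 at 0.40 (adjusted p = 0.023) and Cd69 at 0.45 (adjusted p = 0.026) were also called higher there, as were Hivep3, Spred1 and Sqle. Called lower there were Il7r at -0.37 (adjusted p = 0.010), Abcg1 at -0.48 (adjusted p = 8.5e-04) and Txnip at -0.27 (adjusted p = 0.035). By list, 9 of 35 transcription factors, 10 of 34 co-stimulatory receptors, 10 of 42 receptor-proximal genes and 14 of 70 ribosome biogenesis genes were then higher, and 4 of 48 genes of naive identity and quiescence were lower. The median of the mitochondrially encoded genes was then -0.054 and that of cytosolic ribosomal proteins 0.0022. The slope was computed from the same expression values, and it averaged 0.00404 in stimulated and 0.151 in unstimulated libraries. When a spline of GC content was removed instead, Cd69, Ccnd2, Nfatc1 and Il7r did not pass (limma adjusted p = 0.226, 0.207, 0.0724 and 0.14). Nfkbid, Abcg1 and Hivep3 did pass with the spline removed.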

How the data were processed

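Expression was measured by RNA-seq in 18 libraries, 3 in each of 6 groups of genotype and condition taken from titles and characteristics. Per the labels' protocols, TruSeq version 2 libraries, which do not mark strand, were made from 10 ng of RNA and sequenced as 75 bp single-end reads, so overlapping genes on opposite strands cannot be told apart. CASAVA 1.8, HISAT2 2.1.0, SAMtools 1.4, Partek 6.6, DESeq2 and mm10 are named in the submitters' processing notes, without role or order.

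The authors deposited 1 table of normalized log2 values for 15137 genes, from -1.36 to 17.2. The labels do not state the transformation. All columns hold log2 values; those entered here under the general unit of a score are deposited log2 values too. Whole reads could not be recovered, so no count test was run and no counting interval is given.

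Group means of all 18 libraries were fitted with limma 3.58.1 in R 4.3.3 (trended empirical Bayes, 12 residual degrees of freedom, 15.7 with the prior), with two-sided Benjamini-Hochberg adjusted p over 10877 genes and a threshold of 0.05. The scripts were tested on simulated data with 200 changed genes. There the main fit called 44.8% of genes changed by 0.5, 83.6% of those changed by 1 and 97.0% of those changed by 2. It also called 8 unchanged genes. Many changes of 0.5 would thus be missed. Library measures were compared by exact permutation with SciPy. Coordinates and GC content (99.3% of tested genes) came from GENCODE M21, and promoters from RefSeq. Since no gene changed 4-fold as foreseen for the motif search, it covered all called genes.

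The members and the 42 gene lists were chosen with earlier results of these data known. Named were the 20 called genes that rose most and the 20 that fell most, with groups that did not overlap and a higher group mean of 100 or more in linear units, the key and called members of each list, and the 10 most abundant genes; others are marked, and a few genes that this rule names are not reported here. Alternatives were other filters, a pseudocount, TMM-type scaling, quantile normalization, fits on fewer libraries, no trend, library weights, GC corrections, a replicate block, a test against 2-fold and each library left out.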

Additional observations from a re-analysis of the deposited data

Results flagged for a closer look

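One gene differed between the genotypes in its response to stimulation by a test of the difference itself. Acot4, encoding a peroxisomal acyl-CoA thioesterase (chromosome 12, 84038379 to 84048601, plus strand, GRCm38), was at 4.46, 4.31 and 4.41 in stimulated and 5.40, 5.34 and 5.50 in unstimulated Creld1cKO libraries, a difference of -1.02 ± 0.13 (SE, n = 3 each; limma adjusted p = 0.00185). In control cells it was at 5.17, 5.29 and 5.00 in stimulated and 4.46, 4.86 and 4.41 in unstimulated libraries, a difference of 0.58 ± 0.13 that did not pass (adjusted p = 0.0869). Creld1cKO minus control, the response differed by -1.60 ± 0.18 (adjusted p = 0.00247), and stimulated and unstimulated libraries did not overlap in either genotype. Leaving out each control library of the cultured groups gave -1.74 to -1.52 (adjusted p = 5.3e-04 to 0.0143). The difference did not pass with the GC slope and the replicate block together (-1.67, adjusted p = 0.055) or in the test against a 2-fold change, and a minimum linear value of 50 left the gene untested.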

How the results depend on the processing

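The counts of called genes depended on the processing, and so did the differences of some named genes. Higher and lower genes numbered 34 and 4 in control cells. No filter gave 7 lower genes, and quantile normalization 53 higher and 7 lower. A fit of only the 6 libraries compared gave 7 and 0, and of only the 9 control libraries 4 and 0. Library weights gave 1098 and 1599, the GC slope as a covariate 234 and 87, the GC slope with the replicate block 187 and 53, and a GC spline removed 102 and 29. Limma's test against a 2-fold change gave 0 and 0, with an unadjusted p under 0.05 for 2 genes. Leaving out 1 library gave 4 to 67 higher and 0 to 11 lower genes. Of the 38 genes, 38 passed with library weights, with the GC covariate and with the GC covariate and block, 37 with TMM-type scaling and with quantile normalization, 36 with the GC spline and 6 in the fit of only the 6 libraries. The difference in response between the genotypes was called for 1 gene, but for 3 without a filter, for 0 with a minimum of 50, with the GC slope and block or against 2-fold, and for 5905 with library weights. Stimulated against fresh cells, 2049 genes were called, but 4122 with library weights, 4463 with the GC covariate, 4527 with the covariate and block, 3389 with the GC spline and 35 against 2-fold. Unstimulated against fresh cells, 3151 were called, but 5469 with library weights and 33 against 2-fold. The causes were not tested. The difference turned negative for Ldha (-0.076 and -0.052) and Myc (-0.027 and -0.10) without control stimulated replicate 2 and without control unstimulated replicate 1, with ranges of -0.076 to 0.12 and -0.10 to 0.20 over the libraries left out, and neither passed in those fits. Share of mitochondrial transcripts and share of the 100 highest genes were compared over all and over tested genes and kept their side of the threshold, which 3 against 3 cannot pass.

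A replicate block for runs of library numbers gave 38 higher and 3 lower genes, with 35 of the 38 among them. Deviations from the group means correlated at 0.53, 0.13 and 0.040 between stimulated and unstimulated libraries of the same run. Between libraries of different runs they correlated at -0.078, -0.48, -0.56, 0.47, 0.016 and -0.085. The numbers were not taken to pair the samples, though these values do not decide it, and no label ties a run to a batch. Depth is unknown, the spread of low genes is compressed in the deposited values, and differences of low genes may be understated.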
